A study of Mus musculus with 6 samples.

Results

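Messages for the nuclear-encoded subunits of mitochondrial complex I were taken as every gene whose symbol is Nduf followed by one of the letters a, b, c, s or v and a number, with Ndufab1 added and the Ndufaf assembly factors left out. They numbered 37 of the 51912 genes to which transcripts could be assigned. All 37 were among the 13231 genes that passed the filter on low counts.

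The study asked how the poly(A) RNA held in ribosome preparations differs after a resin step that follows a sucrose cushion, the combination its labels call RAPIDASH. The material was from E14, an established mouse embryonic stem cell line, and every culture was given cycloheximide, which stalls translating ribosomes, shortly before harvest. In the 3 Eluate libraries, cushion-pelleted material was passed over a cysteine-charged sulfhydryl resin and the RNA of the eluate was sequenced. In the 3 Pellet libraries, RNA was extracted directly from the resuspended cushion pellet. The groups share the cell line, the drug and the cushion, differ by the resin step, and carry no genotype contrast. Whether the libraries of a group came from separate cultures is not stated, and p-values therefore cover only the variation among these 6 samples, which may be technical.

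Totals were 10019627 to 11642883 estimated counts in Eluate libraries and 7837621 to 10438536 in Pellet libraries. Pellet replicate 1 stood apart from the other Pellet libraries, so results that change without it are given both ways. All 10 embryonic stem cell markers were detected, with summed levels of 11932 to 12278 CPM (counts scaled to a common library total) in Eluate libraries and 9646 to 9978 CPM in Pellet libraries. The markers did not move together. Pou5f1, Esrrb, Dppa5a, Utf1 and Fgf4 were higher in every Eluate library than in any Pellet library. Sox2 and Zfp42 were lower in every Eluate library, and Nanog, Klf4 and Tdgf1 had overlapping groups. Summed CPM in Eluate and then Pellet libraries was 15.4 to 20.7 and 14.7 to 19.0 for 5 primitive endoderm markers, 1.00 to 1.83 and 0.350 to 0.809 for 3 mesoderm markers, and 19.3 to 22.2 and 20.3 to 23.1 for 3 neural markers. For 4 fibroblast markers it was 15.6 to 21.1 in Eluate and 9.89 to 12.8 in Pellet libraries. Nearly all of this was Thy1, which ran from 9.22 to 20.4 CPM over all libraries. Thy1 was higher in every Eluate library than in any Pellet library. Col1a1 was at most 1.00 CPM and Col1a2 at most 0.267 CPM, both with overlapping groups, and Postn was at 0 in every library. The part of the primitive endoderm, mesoderm, neural and fibroblast markers in the results was not tested.

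Complex I is the entry point of the respiratory chain: it oxidises NADH, passes the electrons along a chain of iron-sulfur clusters to ubiquinone and pumps protons across the inner mitochondrial membrane. Its matrix arm holds the N module, where NADH is oxidised, and the Q module, where ubiquinone is reduced. The membrane arm is built around subunits made inside mitochondria from mitochondrial DNA, while all the subunits described here are made by cytosolic ribosomes and imported. A few core subunits carry the catalysis, and the accessory subunits surround and stabilise them.

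The messages that carry the results differ in how their reading frames begin and in their base composition, so a few sequences are printed first. They were read from the GENCODE M21 transcripts. The first set shows the 9 bases before the start codon and the first 21 coding bases. Capitals mark the motif AAGATGGCGGC, which was the most common start context among the 21547 annotated coding genes of the files, held by 150 of them against 57 for the next most common, and is the core of an initiator element known as TISU that is described for messages with short 5′ untranslated regions, many of them mitochondrial. It was searched only on the message strand with its ATG at the annotated start codon, so it overlaps that codon. It was present there in 7 of the 37 members (18.9%), against 144 of the 12186 tested genes with a complete annotated reading frame (1.18%). In Ndufs1, with the lowest change of the members, and in Ndufa11, with the highest, the motif was not in this window and capitals mark only the start codon. Of the motif members, 5 are shown, and Ndufa2 is named only.
Ndufs1: aaagccatcATGttaaggatacctataaaa
Ndufa9: tgggagAAGATGGCGGCcgccgtccgcttt
Ndufs4: tacaggAAGATGGCGGCggtctcaatgtca
Ndufa6: ctcggcAAGATGGCGGCcgcggccaccggc
Ndufs7: gaggccAAGATGGCGGCgctggcggctcct
Ndufs6: accggcAAGATGGCGGCggtgctgaccttc
Ndufa11: cagctaggtATGgcgatggtgaagcggttc

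The second set gives the first 150 coding bases of Ndufs1, Ndufa11 and Ndufab1 with every G and C in capitals, because the changes followed GC content of the whole message. G and C made up 42.0% of this stretch in Ndufs1, 56.7% in Ndufa11 and 72.7% in Ndufab1. Over the whole message they made up 45.4%, 58.2% and 45.3%. The GC-rich start of Ndufab1 therefore does not stand for its whole message, which is as GC-poor as that of Ndufs1.
Ndufs1: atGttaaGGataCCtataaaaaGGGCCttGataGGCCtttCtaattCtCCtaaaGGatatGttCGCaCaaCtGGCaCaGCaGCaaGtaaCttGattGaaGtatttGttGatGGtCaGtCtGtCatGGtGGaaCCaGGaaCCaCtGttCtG
Ndufa11: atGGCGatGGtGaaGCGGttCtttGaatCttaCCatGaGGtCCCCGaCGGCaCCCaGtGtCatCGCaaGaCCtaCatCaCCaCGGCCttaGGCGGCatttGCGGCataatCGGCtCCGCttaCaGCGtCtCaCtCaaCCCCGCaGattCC
Ndufab1: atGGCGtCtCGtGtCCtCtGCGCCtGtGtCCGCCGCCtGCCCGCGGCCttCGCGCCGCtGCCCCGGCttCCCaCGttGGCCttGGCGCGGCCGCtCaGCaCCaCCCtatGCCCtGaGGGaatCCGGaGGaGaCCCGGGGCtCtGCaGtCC

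Most complex I messages made up a slightly larger part of the RNA in Eluate than in Pellet libraries, and 1 core subunit message fell far below its partners. By edgeR's quasi-likelihood test on counts, with Benjamini-Hochberg adjustment over all 13231 genes and a threshold of 0.05, 27 of the 37 members were higher in Eluate libraries, 1 was lower and 9 did not pass. Over all genes tested, 24.5% were called higher and 28.2% lower, 52.7% in all. The median log2 fold change, Eluate over Pellet, was 0.43 over the members and 0.0035 over all genes. By CPM, all 3 Eluate libraries lay above all 3 Pellet libraries for 26 members, against 29.1% of all genes, and below them for 1 member, against 31.2%. The changes were small: Ndufs1 alone moved by at least 1 on the log2 scale. Counts were from bulk material, and they give the share of a message in the RNA of each preparation, not its amount per cell.

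As a share of all counts assigned to genes, the 37 members held 0.541%, 0.545% and 0.535% in Eluate libraries and 0.417%, 0.408% and 0.401% in Pellet libraries, which is 0.540 ± 0.0050% in Eluate and 0.409 ± 0.0078% in Pellet libraries (SD, n = 3 each). The Eluate shares lay above every Pellet share. The 95% exact binomial intervals of single libraries ran from 0.531% to 0.549% among Eluate libraries and from 0.397% to 0.421% among Pellet libraries, and they cover counting error only.

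**Figure D1:**
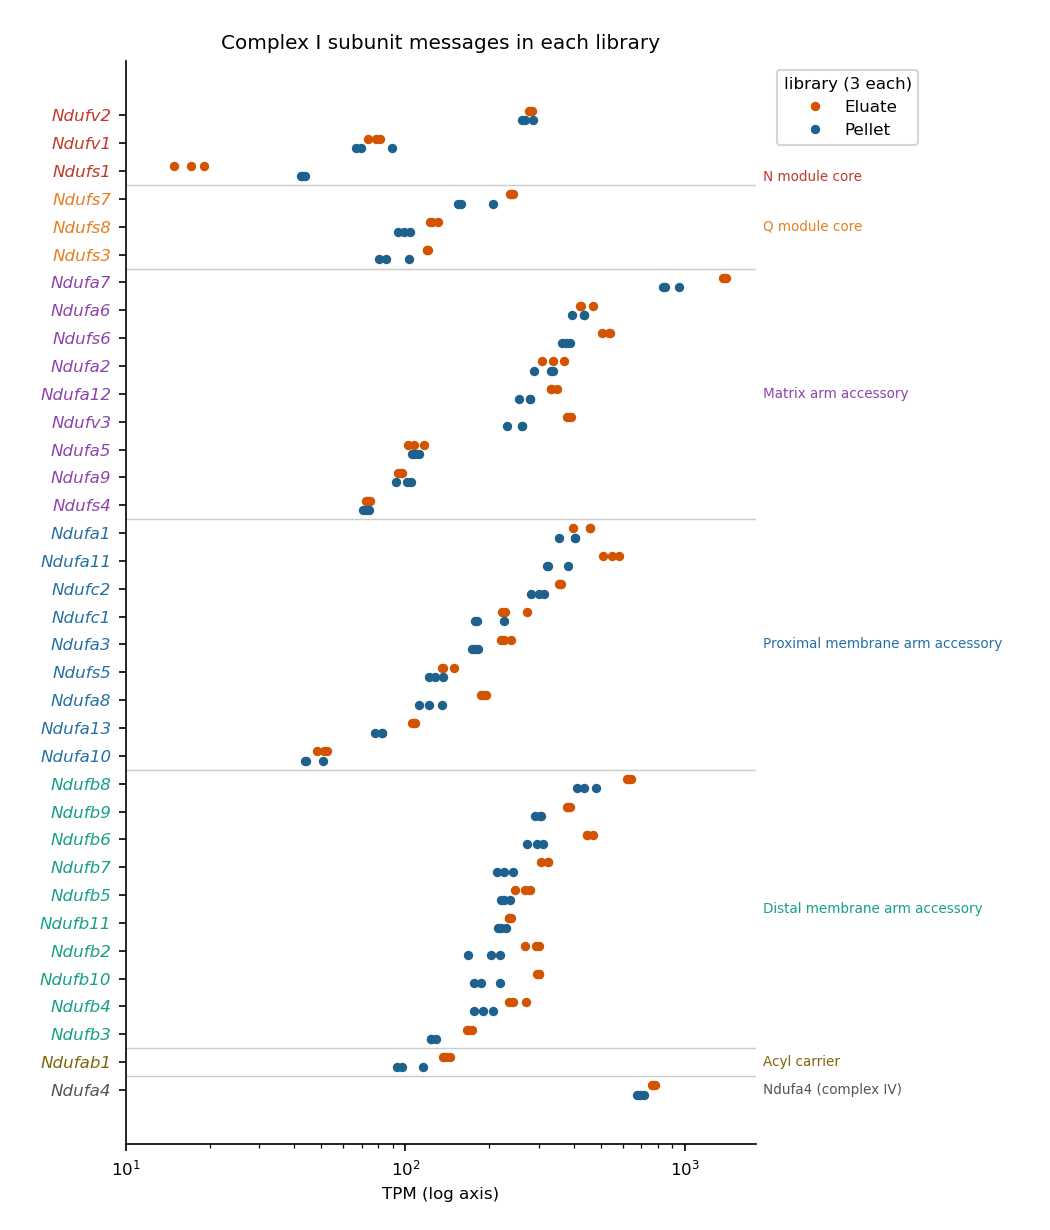
Level of 36 nuclear complex I messages in each library, in TPM on a log axis, with 1 point per library (3 Eluate above, 3 Pellet below in each pair), grouped by place in the complex. Ndufa7 is the highest and Ndufs1 the lowest message in all 6 libraries, and Ndufs1 has its Eluate points to the left of its Pellet points.

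Levels can be compared between genes in TPM, a measure scaled by transcript length and to a common total. The plot of levels by library shows Ndufa7, a small matrix arm subunit, as the most abundant member and Ndufs1 as the least abundant in all 6 libraries. Ndufa7 stood at 1405, 1373 and 1399 TPM in Eluate libraries and at 952, 848 and 837 TPM in Pellet libraries. Ndufs1 stood at 19.1, 17.1 and 14.9 TPM in Eluate libraries and at 43.8, 42.8 and 42.5 TPM in Pellet libraries. The span between the highest and the lowest member was therefore wider after the resin. In TPM, Ndufa7 over Ndufs1 was 73.7, 80.3 and 93.8 in Eluate libraries and 21.7, 19.8 and 19.7 in Pellet libraries.

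Among the 3 N module core messages, 1 fell and 2 did not pass the test, with a median log2 fold change of 0.10. Ndufs1 encodes the largest subunit of the complex, which carries several of the iron-sulfur clusters that take electrons away from the NADH site. It had 45.6, 42.5 and 35.7 CPM in Eluate libraries, against 92.6, 108 and 103 CPM in Pellet libraries. No Eluate value reached the lowest Pellet value, and the log2 fold change was -1.29 ± 0.096 (SE, adjusted p = 1.19e-07, n = 3 each). Ndufs1 was called lower in every alternative that was run. Ndufv1, the subunit that binds the flavin and oxidises NADH, had 132, 130.1 and 119.7 CPM in Eluate libraries, against 125, 105 and 108 CPM in Pellet libraries. The groups overlapped, with Pellet replicate 1 the highest of its group, and the log2 fold change was 0.17 ± 0.080 (SE, adjusted p = 0.0793). Without Pellet replicate 1 it was 0.25 (adjusted p = 0.00145). Ndufv2, which carries an iron-sulfur cluster of this module, had 227, 237 and 222 CPM in Eluate libraries, against 190.3, 240.4 and 210.3 CPM in Pellet libraries. Pellet replicate 2 lay above all Eluate libraries, and the log2 fold change was 0.10 ± 0.080 (SE, adjusted p = 0.323). Without that library it was 0.20 (adjusted p = 0.0445). These 3 proteins sit together in the finished complex, yet in TPM Ndufs1 over Ndufv1 was 0.236, 0.219 and 0.204 in Eluate libraries and 0.489, 0.646 and 0.612 in Pellet libraries.

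Among the Q module core messages, Ndufs7, Ndufs3 and Ndufs8 rose. Ndufs7 encodes the subunit with the last iron-sulfur cluster before ubiquinone. It had 131, 131 and 129 CPM in Eluate libraries, against 97.1, 81.3 and 79.0 CPM in Pellet libraries, and the log2 fold change was 0.60 ± 0.082 (SE, adjusted p = 1.77e-05). The Eluate values were nearly equal, and Pellet replicate 1 was the highest Pellet value. Ndufs3, a core subunit without a cluster of its own, had 102, 105 and 103 CPM in Eluate libraries, against 76.5, 67.8 and 70.3 CPM in Pellet libraries, a log2 fold change of 0.53 ± 0.075 (SE, adjusted p = 2.42e-05). Ndufs8, which carries the clusters that lead into this module, had 85.4, 82.8 and 78.4 CPM in Eluate libraries, against 57.9, 59.7 and 62.1 CPM in Pellet libraries, a log2 fold change of 0.46 ± 0.077 (SE, adjusted p = 0.000127). In these 3 genes, the groups did not overlap. None of the 3 passed once the trend with GC content and length described further on was removed.

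Of the 9 accessory messages of the matrix arm, 5 rose and 4 did not pass, with a median of 0.29 and a range of -0.0036 to 0.76. Ndufa7 had the largest change here, with 450.0, 447 and 432 CPM in Eluate libraries, against 264, 262 and 258 CPM in Pellet libraries. The groups were far apart for their spread, and the log2 fold change was 0.76 ± 0.060 (SE, adjusted p = 1.70e-07). Ndufv3, a small subunit attached to the N module, Ndufs6, a zinc-binding subunit, and Ndufa12 rose by 0.62, 0.58 and 0.38 on the log2 scale. Ndufa5, a small subunit of the Q module, had 62.1, 61.8 and 57.0 CPM in Eluate libraries, against 42.1, 57.4 and 48.5 CPM in Pellet libraries. Pellet replicate 2 lay above the lowest Eluate library, and the log2 fold change was 0.29 ± 0.10 (SE, adjusted p = 0.0283). Its call was the least stable of all members, differing in 13 of 27 alternatives. Without Pellet replicate 1 the log2 fold change was 0.18 (adjusted p = 0.0689), and it also missed the threshold without Pellet replicate 3, Eluate replicate 1 or Eluate replicate 2 (adjusted p = 0.0867, 0.0972 and 0.0866).

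The matrix arm messages that did not pass were Ndufa9, Ndufs4, Ndufa6 and Ndufa2, and each of them held the start motif. Ndufa9, a subunit that binds a nicotinamide nucleotide near the Q module, had 122, 123 and 116 CPM in Eluate libraries, against 115, 120.1 and 127 CPM in Pellet libraries, a log2 fold change of -0.0036 ± 0.070 (SE, adjusted p = 0.970). Ndufs4, whose loss in mice gives an encephalopathy resembling human Leigh syndrome, had 102, 104 and 104 CPM in Eluate libraries, against 88.0, 108 and 106 CPM in Pellet libraries, a log2 fold change of 0.04 ± 0.082 (SE, adjusted p = 0.707). Both genes had overlapping groups. Ndufa6, a partner of the acyl carrier protein, and Ndufa2 had log2 fold changes of 0.13 ± 0.072 and 0.16 ± 0.11 (SE), with adjusted p = 0.146 and 0.244.

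All 10 messages for accessory subunits of the distal membrane arm rose, with a median of 0.54 and a range of 0.20 to 0.74, and their groups did not overlap. Ndufb10, which has paired cysteines of the kind oxidised in the intermembrane space, had 159, 164 and 159.6 CPM in Eluate libraries, against 101, 97.7 and 90.4 CPM in Pellet libraries, a log2 fold change of 0.74 ± 0.070 (SE, adjusted p = 6.48e-07). Ndufb6, a membrane-spanning subunit, had 177, 191 and 173 CPM in Eluate libraries, against 109, 121 and 108 CPM in Pellet libraries, a log2 fold change of 0.68 ± 0.073 (SE, adjusted p = 2.00e-06). In both, the lowest Eluate library was well above the highest Pellet library. Ndufb8, Ndufb2 and Ndufb7 rose by 0.61, 0.60 and 0.60 on the log2 scale. Ndufb3, Ndufb4 and Ndufb9, the last another partner of the acyl carrier protein, rose by 0.49, 0.45 and 0.44. Ndufb5 and Ndufb11, at the low end, rose by 0.24 ± 0.074 and 0.20 ± 0.065 (SE, adjusted p = 0.0121 and 0.0152). Ndufb5 missed the threshold without Eluate replicate 2 (adjusted p = 0.0624), and so did Ndufb11 without Eluate replicate 2 or Pellet replicate 3 (adjusted p = 0.0665 and 0.0523).

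In the proximal membrane arm, 7 of the 9 accessory messages rose and 2 did not pass, with a median of 0.42 and a range of 0.20 to 0.78. Ndufa11, a membrane protein related to the mitochondrial import channel family, had 175, 191 and 193 CPM in Eluate libraries, against 114, 106 and 106 CPM in Pellet libraries. This was the highest change of any member, with a log2 fold change of 0.78 ± 0.070 (SE, adjusted p = 4.38e-07). Ndufa8, another subunit with paired cysteines, had 131, 133 and 135 CPM in Eluate libraries, against 81.3, 76.3 and 80.8 CPM in Pellet libraries, a log2 fold change of 0.74 ± 0.069 (SE, adjusted p = 5.83e-07). Ndufa13, also known as the cell death regulator GRIM-19, rose by 0.54, Ndufa3 by 0.43, Ndufc1 by 0.42 and Ndufc2 by 0.34 on the log2 scale. Ndufa10, which has the fold of a nucleoside kinase, rose by 0.23. Ndufs5 and Ndufa1 had log2 fold changes of 0.20 ± 0.10 and 0.21 ± 0.10 (SE) and did not pass (adjusted p = 0.123 and 0.0954). Without Pellet replicate 2, Ndufs5 passed with a log2 fold change of 0.29 (adjusted p = 0.0498).

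The last 2 members stand apart by function. Ndufab1, the mitochondrial acyl carrier protein, serves fatty acid and lipoate synthesis as well as complex I. It had 158, 154 and 152 CPM in Eluate libraries, against 113, 110.3 and 108 CPM in Pellet libraries, a log2 fold change of 0.49 ± 0.066 (SE, adjusted p = 1.88e-05). Ndufa4 carries the family's name but is now counted with complex IV. It had 267, 274 and 263 CPM in Eluate libraries, against 213, 231 and 238 CPM in Pellet libraries, a log2 fold change of 0.24 ± 0.065 (SE, adjusted p = 0.00583). In both genes every Eluate library was above every Pellet library.

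**Figure D2:**
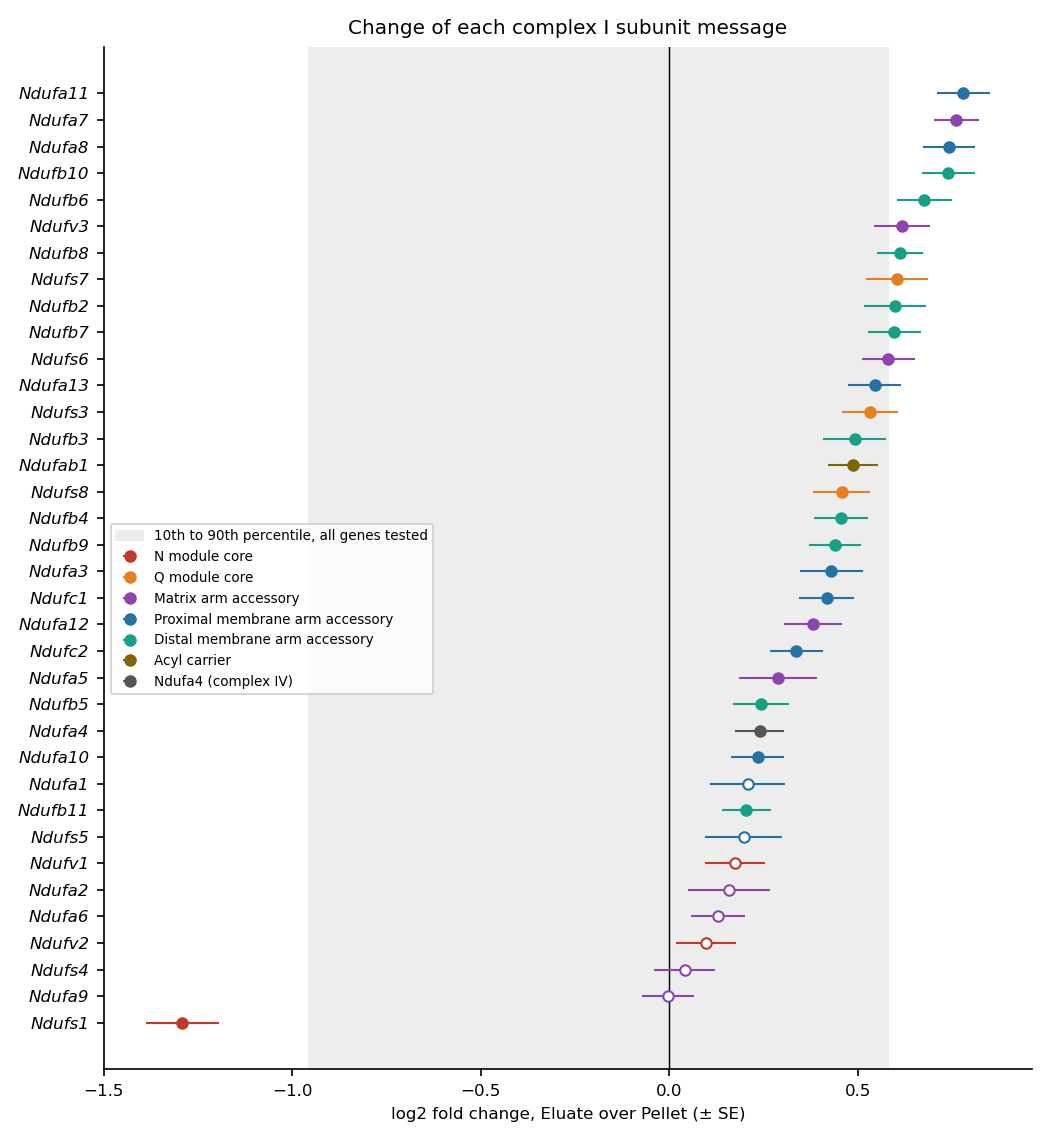
Log2 fold change, Eluate over Pellet, of 36 members with its standard error, coloured by place in the complex, filled where the adjusted p was under 0.05, over the range from the 10th to the 90th percentile of all genes tested (-0.96 to 0.58, grey). Ndufs1 at -1.29 lies left of that range, and the highest members, led by Ndufa11 at 0.78, lie just right of it.

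The plot of the members' changes sets them beside the middle range of all genes, which ran from -0.96 at the 10th percentile to 0.58 at the 90th. Members from Ndufb7 upwards lay above it, and Ndufs1 was the only member below it. The 7 motif members had a median log2 fold change of 0.13: 2 of them rose (Ndufs6 and Ndufs7) and 5 did not pass. The 30 members without it had a median of 0.45, with 25 higher, 1 lower and 4 not passing. Over all 144 tested genes with the motif, 37 were higher, 53 lower and 54 did not pass, with a median of -0.07. Over all genes tested, 24.5% were called higher and 28.2% lower, with a median of 0.0035. Whether the motif bears on the change was not tested.

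Complex I messages are short. Their coding length had a median of 435 nt and ran from 213 to 2184 nt, against a median of 1341 nt over the tested coding genes. Their 3′ untranslated regions had a median of 112 nt, against 888 nt. GC content of the whole message had a median of 52.5% and ran from 43.1% to 60.7%, against 51.0%. Of the 32 members with coding lengths up to 1000 nt, 26 rose and 6 did not pass. Of the 5 longer ones, 1 rose (Ndufa10), 1 fell (Ndufs1, the longest at 2184 nt) and 3 did not pass, Ndufv1 and Ndufa9 among them.

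**Figure D3:**
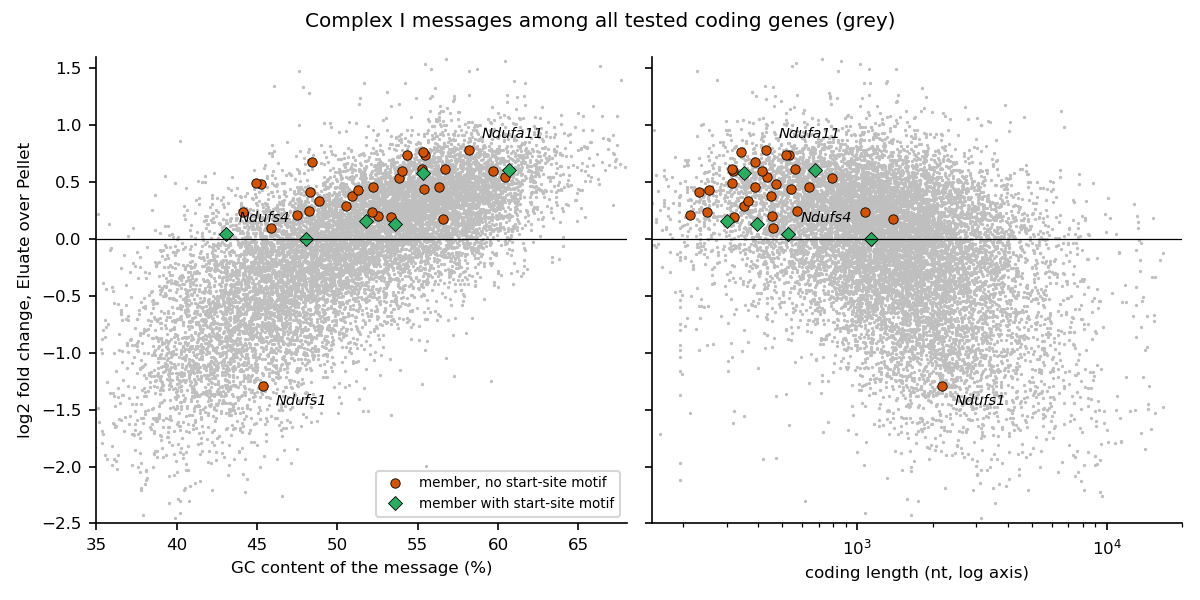
Log2 fold change, Eluate over Pellet, against GC content of the message (left, %) and coding length (right, nt, log axis) for the tested coding genes (grey, with the few beyond the axes not drawn), members without the start motif (circles) and members with it (diamonds). Members lie at the short end of the length axis, and Ndufs1, the lowest member, is among the longer and GC-poor messages.

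The plot against composition shows the members inside the cloud of all genes. Across the 37 members, the log2 fold change and GC content had Pearson's r = 0.488 and Spearman's rho = 0.556, and without Ndufs1 these were 0.488 and 0.533. Across 12186 tested coding genes they were 0.693 and 0.723. For coding length, r was -0.525 and rho -0.193 across members. Without Ndufs1 they were -0.268 and -0.124, so the relation with coding length rested largely on that gene. Across all tested coding genes they were -0.402 and -0.416. For the length of the whole message, r was -0.578 and rho -0.38 across members, and -0.411 and -0.327 without Ndufs1. Across all tested coding genes these were -0.458 and -0.481. All points in these relations come from the same 6 libraries, and genes are not independent replicates. The 18 members with a GC content of at least 52.5% had a median log2 fold change of 0.59, with 14 higher. The 19 below it had a median of 0.24, with 13 higher and 1 lower.

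Because the change followed GC content and length over all genes, the test was repeated with each library's smooth trend in both removed. Then 17 members were higher, 5 lower and 15 did not pass, and the median was 0.12, against 0.0127 over all genes. Over all genes, 34.8% were then called, 19.0% higher and 15.8% lower. Of the 27 members called higher on the counts as deposited, 14 stayed higher, 7 were positive without passing and 6 were negative, 1 of them (Ndufb11 at -0.15) called lower. The members with the highest values were now Ndufab1 at 0.70 ± 0.067, Ndufb3 at 0.67 ± 0.064, Ndufb6 at 0.60 ± 0.058, Ndufa4 at 0.51 ± 0.058 and Ndufs4 at 0.50 ± 0.060 (log2, SE). Except for Ndufb6, these messages had a GC content at or below 45.3%. Ndufs4, Ndufv2 (0.22) and Ndufa1 (0.31), which had not passed before, were called higher.

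Ndufs1 stayed the lowest member with the trend removed, at -0.89 ± 0.076 (log2, SE, adjusted p = 3.21e-10). Ndufv1 at -0.26 and Ndufa6 at -0.25 were called lower, having not passed before. By place, the N module core then had 1 higher (Ndufv2) and 2 lower, and the matrix arm accessory messages 3 higher and 1 lower. The Q module core messages Ndufs7, Ndufs3 and Ndufs8 no longer passed, at -0.08, 0.11 and -0.09 (log2, adjusted p = 0.313, 0.179 and 0.356). The proximal membrane arm had 6 higher and 3 not passing, and the distal membrane arm 5 higher and 1 lower of 10. With the GC trend alone removed, 26 members were higher and 2 lower, Ndufs1 among them, with a median of 0.36, against 41.2% of all genes called, 22.3% higher and 18.9% lower. Of the 27 members called higher before, 22 were higher again, 5 (Ndufb7, Ndufb11, Ndufa13, Ndufs7 and Ndufs8) did not pass, and 4 (Ndufa1, Ndufa9, Ndufs4 and Ndufv2) were newly higher.

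**Figure D4:**
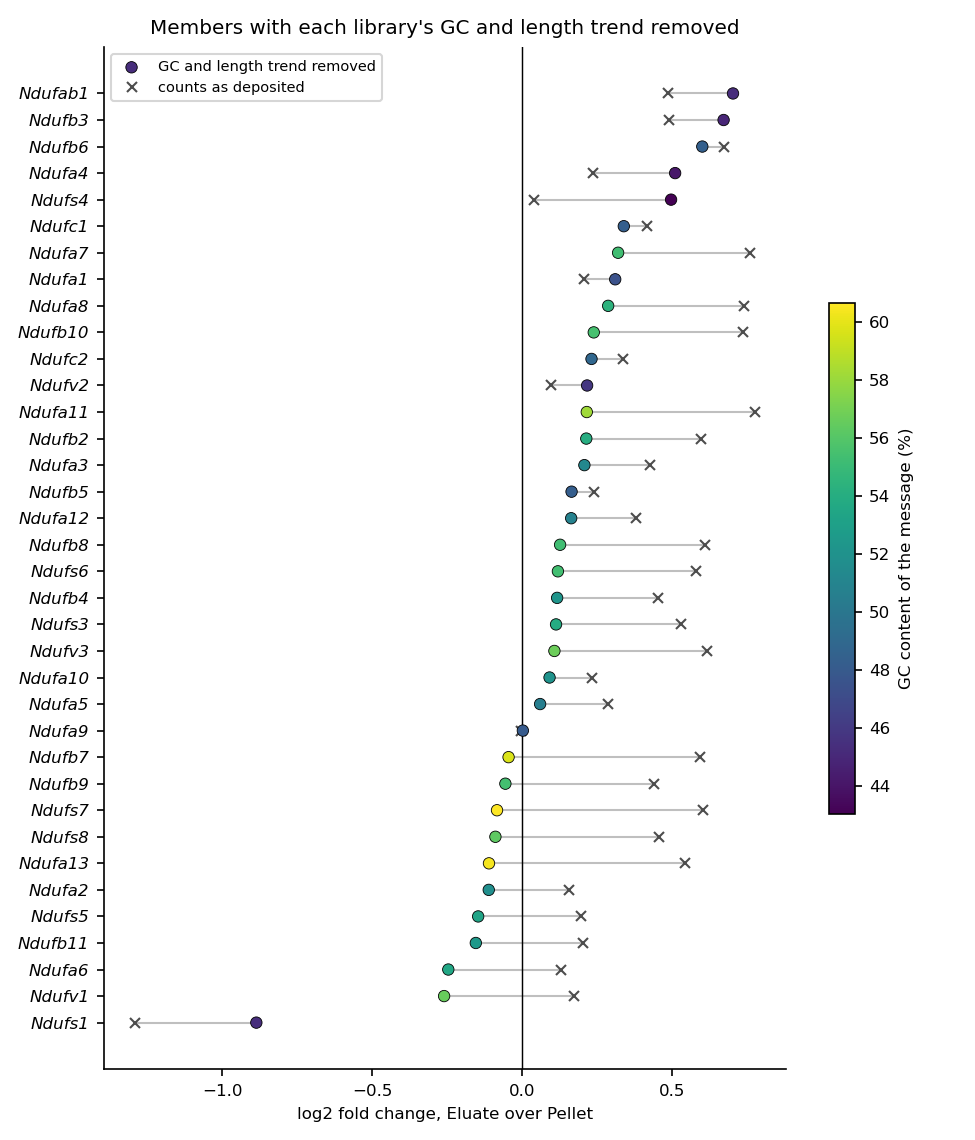
Log2 fold change, Eluate over Pellet, of 36 members with the counts as deposited (crosses) and with each library's GC and length trend removed (circles, coloured by the GC content of the message in %). GC-rich members such as Ndufs7 and Ndufa13 shift left across 0, while GC-poor members such as Ndufs4 and Ndufab1 shift right.

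The plot of both values shows that 8 members had a larger value after the trend was removed and the others a smaller one. The relation with GC content then had the opposite sign across members, with r = -0.379 and rho = -0.444. Without Ndufs1 these were -0.636 and -0.533. Across all tested coding genes they were 0.033 and 0.015, so a reverse relation with GC content remained in the members' trend-removed values. For coding length, r was then -0.593 and rho -0.43 across members, and -0.444 and -0.381 without Ndufs1. Across all tested coding genes the values for coding length were -0.294 and -0.332.

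Some members are read from more than 1 transcript. Salmon assigned an average of at least 10 TPM to 2 or more transcripts of 9 members, and these were compared in a fit over 19684 transcripts, of which 26.0% were called, 11.8% higher and 14.3% lower. Ndufv3 makes a short form and, by including one long exon, a long form. The short form, with 315 coding nt, had 373, 372 and 363 TPM in Eluate libraries, against 242, 245 and 217 TPM in Pellet libraries, a log2 fold change of 0.74 ± 0.073 (SE, adjusted p = 0.00235). The long form, with 1407 coding nt, had 14.4, 10.7 and 14.1 TPM in Eluate libraries, against 14.7, 12.9 and 11.1 TPM in Pellet libraries, a log2 fold change of 0.13 ± 0.15 (SE, adjusted p = 0.585). The short form was clearly separated between the groups and the long form was not. As a share of Ndufv3 TPM, the long form made up 3.71%, 2.81% and 3.74% in Eluate libraries and 5.73%, 5.01% and 4.87% in Pellet libraries.

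Of the 2 Ndufv2 transcripts, the one of 927 nt had a log2 fold change of -0.01 ± 0.10 (SE, adjusted p = 0.955) and the one of 1697 nt 0.29 ± 0.096 (SE, adjusted p = 0.0789). Neither passed. The 2 Ndufs8 transcripts had similar values of 0.44 ± 0.055 and 0.41 ± 0.16 (SE), and only the first, at adjusted p = 0.00375, passed (adjusted p = 0.112 for the second). Ndufa4 had a transcript of 452 nt that was listed at 0 in all 3 Eluate libraries and at 10.6, 105 and 106 TPM in Pellet libraries. Its transcript of 610 nt held most of the gene, with 764, 760.0 and 776 TPM in Eluate libraries and 676, 562 and 596 TPM in Pellet libraries. The assignment of reads between such overlapping transcripts is Salmon's estimate. The other transcript pairs, of Ndufa5, Ndufa11, Ndufc1, Ndufc2 and the 3 of Ndufb5, had 1 or no form called higher in each gene and none called lower.

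Several members have processed copies elsewhere in the genome. Of the 37 messages, 14 shared at least 10% of their 31-base words with another annotated gene, and in 3 of these the copy held over 100 counts. Ndufa12 shared 59.0% of its words, with Gm15920 holding 857 counts beside 6214 for Ndufa12. Ndufs5 shared 47.3%, with BC002163 holding 849 beside 2432, and Ndufb4 shared 38.3%, with Ndufb4c holding 1261 beside 9612. Values for Ndufa12, Ndufs5 and Ndufb4 are uncertain to that extent. With the counts of these copies added, their log2 fold changes were 0.39, 0.20 and 0.49 (edgeR adjusted p = 0.000603, 0.103 and 1.39e-05). Ndufa12 and Ndufb4 were again called higher, and Ndufs5 again did not pass. The best copies of Ndufs3 and Ndufab1, which shared 49.3% and 38.1% of their words, held 6.0 and 22.3 counts over all libraries.

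The mitochondrially encoded partners of these proteins went the other way. Of 7 mt-Nd messages for the membrane arm core, 6 were lower in Eluate libraries, against 28.2% of all genes, and 1, mt-Nd3, did not pass. Their median log2 fold change was -1.55. These messages are translated inside mitochondria, on mitochondrial ribosomes. mt-Nd2 had 871, 1008 and 928 CPM in Eluate libraries, against 1869, 3160 and 3128 CPM in Pellet libraries, a log2 fold change of -1.54 ± 0.24 (SE, adjusted p = 0.00494). mt-Nd1, with the highest mean CPM and TPM, had 2680, 3032 and 3089 CPM in Eluate libraries, against 4663, 9829 and 9632 CPM in Pellet libraries, a log2 fold change of -1.45 ± 0.34 (SE, adjusted p = 0.0243). Pellet replicate 1 was the lowest Pellet library in both genes. mt-Nd3 had a log2 fold change of 0.08 ± 0.36 (SE, adjusted p = 0.842). It shares 98.1% of its words with Gm28438, to which 25121 counts were assigned beside 6426 for mt-Nd3, so its value is uncertain. With the counts of that copy added, mt-Nd3 had a log2 fold change of -1.08 ± 0.27 (SE, adjusted p = 0.0263), and all 7 were called lower. The copies were added after the data had been seen. The 7 together held 0.513%, 0.604% and 0.595% of assigned counts in Eluate libraries and 1.06%, 1.92% and 1.93% in Pellet libraries. In Eluate libraries this was close to the share of the 37 nuclear members, and in Pellet libraries it was well above it. Without Eluate replicate 1 or Eluate replicate 3, 3 of the 7 were called lower. With the GC and length trend removed, 6 were lower again, against 15.8% of all genes, and the median was -0.61. With the GC trend alone removed, 5 were lower, against 18.9% of all genes, and the median was -0.32. mt-Nd1 then did not pass, at -0.32 (adjusted p = 0.199).

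Messages for the factors that assemble complex I, which are not part of the finished enzyme, were called in both directions. Of 20 listed, 19 were tested: 6 were higher, 3 lower and 10 did not pass, beside 24.5% higher and 28.2% lower over all genes, with a median log2 fold change of 0.0059. Dmac1, a factor for the distal membrane arm, had the highest mean CPM and the smallest p, with a log2 fold change of 0.61 ± 0.078 (SE, adjusted p = 1.07e-05). Acad9, an acyl-CoA dehydrogenase that doubles as an assembly factor, had the smallest p among the lower ones, with -0.69 ± 0.10 (SE, adjusted p = 3.53e-05). Without Pellet replicate 3, 3 were higher, and without Pellet replicate 1, 5 were lower.

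**Figure D5:**
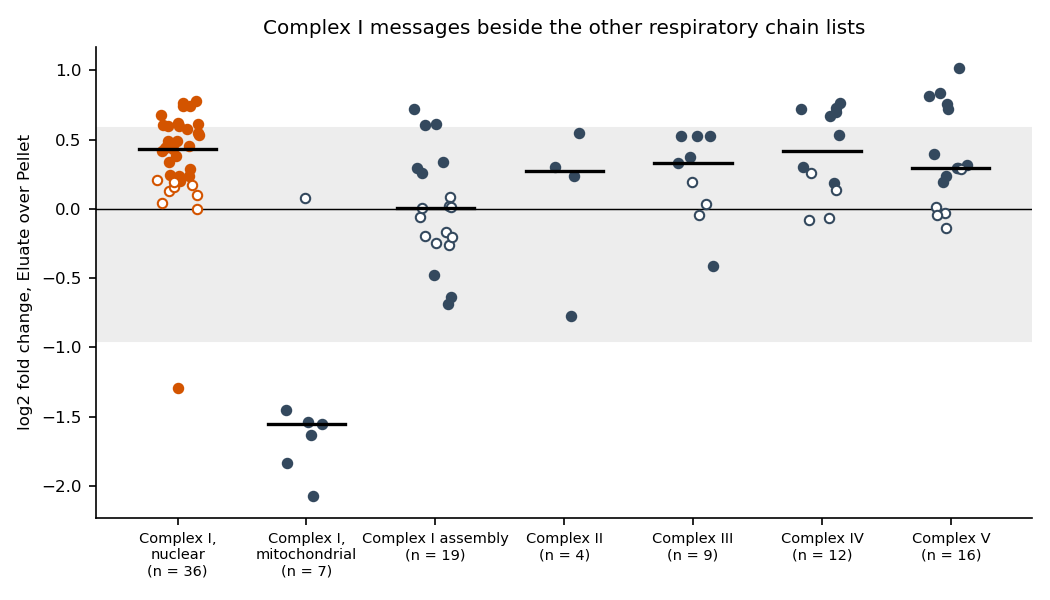
Log2 fold change, Eluate over Pellet, of 36 genes of the nuclear complex I list and each tested gene of the other respiratory chain lists, filled where the adjusted p was under 0.05, with the median of the genes drawn as a bar and the 10th to 90th percentile of all genes in grey (-0.96 to 0.58). The mitochondrial messages other than mt-Nd3 lie between -2.07 and -1.45, and the nuclear complex I messages drawn, other than Ndufs1, lie between -0.0036 and 0.78.

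Nuclear messages for complexes II to V were set beside those of complex I in the plot of the lists. Of 41 tested, 27 were higher, 2 lower and 12 did not pass, with a median of 0.30. Over all genes, 24.5% were called higher and 28.2% lower. After removal of the GC and length trend 18 were higher and 8 lower, with a median of 0.09. Over all genes, 19.0% were then called higher and 15.8% lower. On the counts as deposited, the medians were 0.27 for complex II, 0.33 for complex III, 0.42 for complex IV and 0.29 for complex V. The 2 lower genes were Sdha, the flavin subunit of complex II, with a log2 fold change of -0.77 ± 0.080 (SE, adjusted p = 1.39e-06), and Uqcrc2, a core subunit of complex III, with -0.42 ± 0.072 (SE, adjusted p = 0.000171). Sdha was called lower again with the GC and length trend removed, at -0.59, while Uqcrc2 did not pass, at -0.03 (adjusted p = 0.773), and had 0.13 with the GC trend alone removed (adjusted p = 0.110). The smallest p in the higher direction belonged to Sdhc (0.55), Uqcrq (0.53), Cox5b (0.76) and Atp5g2 (0.84), and Cyc1 and Cox4i1, with the highest mean CPM in complexes III and IV, had 0.52 and 0.72. Atp5b, with the highest mean CPM in complex V, had -0.03 and did not pass (adjusted p = 0.729), nor did Cox7a2l (-0.08, adjusted p = 0.410) and Atp5f1 (-0.14, adjusted p = 0.146). Without Pellet replicate 1, 5 of the 41 were lower.

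The authors' deposited table of the same comparison listed 25 of the 37 members. Of these, 24 had a positive log2 fold change and 1, Ndufs1, a negative one, -1.26 in the authors' deposited table against -1.29 in the test here. Every member listed there had a DESeq2 adjusted p of 0.0145 or lower. That table held 4892 genes, and the rule by which they were kept is not given. It comes from the same 6 libraries, so the count of positive members is not separate evidence. The authors' deposited table gave 0.76 for Ndufa11 and 0.75 for Ndufa7. Over the 25 members, the values in the authors' deposited table minus those in the test here ran from -0.06 to 0.09 on the log2 scale. The other 12 members were not in it.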

How the data were processed

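Poly(A) RNA-seq of 6 libraries (3 Eluate, 3 Pellet) was used, grouped by their titles. The submitters' processing notes name Salmon 1.10.3, STAR 2.7.11b, cutadapt 4.7 and DESeq2 1.44.0 and the GRCm39 build, without stating the role of each. For the annotation release, the sources used here give nothing. The authors deposited, per the file headers, Salmon's estimated counts and TPM values per transcript for each library, with transcript length and effective length in bases. The authors also deposited a table of results with a mean normalised signal per gene, log2 fold changes with their errors, a test score and p-values.

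Transcripts were matched by identifier without version to GENCODE M21, which is on an older build, so no coordinates are given. Of 84226 transcripts, 76858 matched, in 51912 genes, and the 7368 unmatched held 1.63% to 2.35% of counts. All 72 member transcripts had the same length in the deposited files and the annotation. Estimated counts were summed per gene, rounded and tested with edgeR 4.0.16 (R 4.3.3; TMM factors, its default count filter, robust quasi-likelihood fit of group alone over all genes). Standard errors were derived from that test. CPM use the TMM-scaled library totals, and TPM were summed per gene. The GC and length trend was removed per library with natural splines of 5 degrees of freedom as offsets. GC content and length are means over a gene's transcripts weighted by TPM, and coding length is that of its most abundant complete coding transcript. The edgeR steps were checked on simulated counts.

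Full values are given for the core subunits, the 5 highest and 5 lowest members by log2 fold change, the most abundant member by TPM, Ndufab1, Ndufa4 and the member with the least stable call; in other lists, for the genes with the highest mean CPM and with the smallest p in each direction. 1 of the 37 members enters every count and median over the list, and its own values are not reported here. The members and lists were chosen with earlier results of these data known. Alternatives covered normalisation, filtering, DESeq2 1.42.0, limma 3.58.1, TPM on a log2 scale with pseudocounts of 1 and 0.1, left-out libraries, a replicate block, transcript choice, sequence copies and the trends; the last section gives their effect.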

Additional observations from a re-analysis of the deposited data

How the results depend on the processing

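Member values were recomputed under 27 alternatives, each changing 1 choice except the replicate block combined with trend removal. Leaving out mitochondrially encoded genes gives no mt-Nd values, and a stricter threshold does not alter a median. Of the 37 members, 12 kept their direction and call in all of them. Over all members and alternatives, 887 values kept both, 47 no longer passed, 24 newly passed and 41 changed sign. The cause of these changes was not tested. The count of members higher, 27, was 17 with the GC and length trend removed (14 of them among the 27); the count lower, 1, was 5 with that trend removed and 2 with the GC trend removed. The member median of 0.43 became 0.12 with the GC and length trend removed, 0.36 with the GC trend removed, 0.52 with upper-quartile factors, which moved the median of all genes to 0.09, and 0.34 on TPM with either pseudocount; leaving libraries out gave 0.36 to 0.46. Without Pellet replicate 1 it was 0.39.

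Over all genes, 3241 were called higher; TPM with a pseudocount of 1 gave 1912, with 0.1 gave 1889, and leaving libraries out gave 1949 to 3722. The count of lower genes, 3736, was 2095 with the GC and length trend removed, and 1502 genes were lower in both. The count of assembly factors higher, 6, was 3 on TPM with either pseudocount and at adjusted p under 0.01, and 3 to 6 with libraries left out; that of factors lower, 3, was 1 with either trend removed and 2 to 5 with libraries left out. The count of mt-Nd messages lower, 6, was 3 at adjusted p under 0.01, 1 to 6 with libraries left out and 7 with the sequence copies added. The count of complex II to V messages lower, 2, was 8 with the GC and length trend removed and 2 to 5 with libraries left out.

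With the GC and length trend removed, signs changed for Ndufa9 (0.0033), Ndufa6 (-0.25), Ndufa2 (-0.11), Ndufv1 (-0.26), Ndufs5 (-0.15), Ndufb11 (-0.15), Ndufb9 (-0.055), Ndufs8 (-0.088), Ndufa13 (-0.11), Ndufb7 (-0.044) and Ndufs7 (-0.083), and with the GC trend removed for Ndufa9 (0.23), Ndufa6 (-0.038) and Ndufv1 (-0.14). Values near 0 changed sign elsewhere: Ndufs4 without Pellet replicate 1 (-0.050) or both replicates 1 (-0.043); Ndufv2 with its most abundant transcript (-0.011); Ndufa5 on TPM (-0.0003 with either pseudocount). Ndufa9 did so with RLE (0.0024), upper-quartile (0.087) or library-total factors (0.013), no count filter (0.011), DESeq2 (0.0025) and an effective-length offset (0.024), and leaving libraries out gave -0.047 to 0.057, positive without Eluate replicate 3, Pellet replicate 3 or both.

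The labels do not say that a replicate number marks parts of the same pellet, so the numbers were not treated as pairs. Same-numbered Eluate and Pellet libraries deviated from their group means with correlations of 0.070, 0.15 and -0.010, and not every library correlated best with its own number. With 3 libraries a group, these correlations cannot settle whether the numbers mark pairs. With the replicate number as a block, 29 members were higher and 1 lower, with Ndufv1 and Ndufa1 added. With the block and the GC and length trend removed, 5 members, 1 assembly factor, 8 complex II to V messages and 2087 genes in all were lower, the member median was 0.12, and signs changed for Ndufa9 (0.0034), Ndufa6 (-0.25), Ndufa2 (-0.10), Ndufv1 (-0.26), Ndufs5 (-0.14), Ndufb11 (-0.15), Ndufb9 (-0.052), Ndufs8 (-0.088), Ndufa13 (-0.11), Ndufb7 (-0.044) and Ndufs7 (-0.082).

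Adding the counts of sequence copies and testing transcripts were chosen after seeing the data. Adding unmatched transcripts was not run, since no table used here names them. With 3 libraries a group, an exact permutation test of a single value cannot go below p = 0.10.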

Other observations

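A few relatives of complex I genes fall outside the naming rule. Ndufb1-ps, which RefSeq names Ndufb1 and lists as protein coding, had 38.7, 36.6 and 33.1 CPM in Eluate libraries, against 28.3, 27.6 and 29.0 CPM in Pellet libraries, a log2 fold change of 0.35 ± 0.098 (SE, edgeR adjusted p = 0.00628). Ndufa4l2, a paralog of Ndufa4, had 27.5, 31.1 and 36.3 CPM in Eluate libraries, against 20.2, 18.5 and 23.0 CPM in Pellet libraries, a log2 fold change of 0.63 ± 0.13 (SE, edgeR adjusted p = 0.000577). In both genes all Eluate libraries were above all Pellet libraries. With the GC and length trend removed the values were -0.11 for Ndufb1-ps and -0.03 for Ndufa4l2, and neither passed (adjusted p = 0.385 and 0.883).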
